A study of Mus musculus with 4 samples.

Results

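The SLAM family is a group of 9 related surface receptors of blood cells, and their genes were taken by symbol: Slamf1, Cd48, Ly9, Cd244, Cd84, Slamf6, Slamf7, Slamf8 and Slamf9. All 9 were among the 23240 gene rows of the deposited table, and each was followed through the 4 RNA sequencing libraries of the study. The libraries came from bone marrow of leukaemic mice on the B6 background, from cells sorted as carrying GFP and BFP and without CD11b and Gr1, which mark maturing myeloid cells at the surface. The labels call the leukaemia RUNX1-FLT3ITD AML, an acute myeloid leukaemia with the activating FLT3-ITD form of the FLT3 receptor. All cells were held for 22 h in serum-free medium with FLT3L, SCF, IL3 and IL11. The treated arm received 200 nM 4OHT (4-hydroxytamoxifen, a ligand commonly used to switch oestrogen receptor fusion proteins), and the control arm received its solvent EtOH. Each arm held 1 library from Runx1-delta/delta cells (replicate 1) and 1 from Runx1-delta/+ cells (replicate 2), where Runx1 is a transcription factor of blood formation and delta marks a deleted allele. The labels name neither the protein on which 4OHT acts, nor the source of the GFP and BFP, nor the age of the mice, nor whether both libraries of a genotype came from 1 mouse. P-values therefore measure only the spread between these 4 samples, which may be technical. With treatment and genotype as terms, that spread is how far the genotypes differ in their ratio of 4OHT to EtOH. It is pooled in part with that of all tested genes.

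SLAM family receptors are immunoglobulin-like proteins that mostly bind a copy of themselves on a neighbouring cell; CD244 instead binds CD48, and CD48 is held in the membrane by a lipid anchor with no signalling tail of its own. The tails of most other members recruit small adaptors of the SAP family, which pass the signal to Src-type kinases or displace phosphatases. In bone marrow the combination of CD150 (Slamf1), CD48, CD244 and CD229 (Ly9) on the surface is used to tell haematopoietic stem cells from multipotent and restricted progenitors, with CD150 retained and CD48 and CD244 absent on the stem cell. CD150 is also part of the progenitor phenotype named in the study's title. Slamf7, Slamf8 and Slamf9 are best known from lymphocytes, plasma cells and mature myeloid cells.

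Depth was 33.7 to 39.4 M mapped reads per library, recovered from the steps of the RPKM values (reads scaled by gene length in kilobases and by the mapped reads of the library). Levels are therefore printed with the whole reads behind them where these are few, and intervals on folds are 95% exact intervals that cover read counting only. The sort was checked against its own genes where these had a row. Itgam (CD11b) lay between 0.168 and 0.358 RPKM. Ly6g, for Gr1, had no row under that symbol, so Gr1 could not be checked directly. Ly6c1 was at or below 0.0828 RPKM and Ly6c2, whose product Gr1 antibodies can also bind, between 1.44 and 7.48 RPKM. Kit, the stem cell factor receptor, measured 0.0781 and 0.0973 RPKM in the EtOH libraries and 1.61 and 0.740 RPKM after 4OHT. Red cell genes were high, with a summed level of 9 erythroid genes of 51557 and 25747 RPKM in EtOH and 3982 and 2266 RPKM in 4OHT (delta/delta first).

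Cd48, Cd84 and either Slamf1 or Cd244 made up nearly all SLAM family RNA, and which of the latter was the higher followed the treatment. In EtOH, Slamf1 was well measured and Cd244 was low but detected, at 11 and 37 reads (delta/delta first). In 4OHT it was the reverse in both genotypes, with Slamf1 at 13 and 5 reads. Cd48 was the most abundant member in all 4 libraries. Slamf6, Slamf8 and Slamf9 were at 2 reads or fewer in every library.

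**Figure D1:**
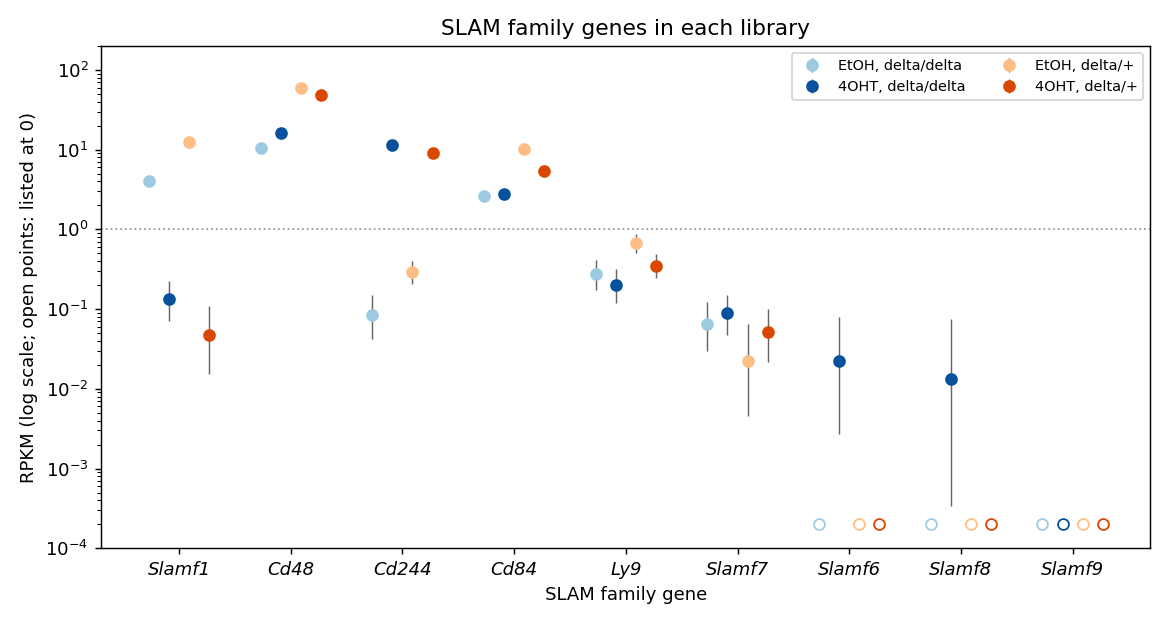
RPKM of each of the 9 SLAM family genes (horizontal axis) in the 4 libraries on a log axis, with 95% Poisson bars for read counting and open points for values listed at 0. The dotted line marks 1 RPKM; Slamf1 lies above it only in the EtOH libraries and Cd244 only in the 4OHT libraries.

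Slamf1, which encodes CD150, stood at 4.04 RPKM (376 reads) in EtOH and 0.132 RPKM (13 reads) in 4OHT of delta/delta cells. In delta/+ cells it went from 12.6 RPKM (1141 reads) to 0.0472 RPKM (5 reads). Both EtOH libraries were thus far above both 4OHT libraries, and the arms did not overlap, as for 16.9% of tested genes in this direction. The fall was 30.7-fold in delta/delta (95% counting interval 17.7 to 58.2) and 267-fold in delta/+ (114 to 823). On the log2(RPKM + 1) scale, which understates the change of a gene near 0, the difference in both pairs was downward and averaged -2.93 (SE 0.37; limma, adjusted p = 0.00661). Of the 9595 genes averaging 1 RPKM or more, 10.2% were called lower and 22.2% higher by that test, 32.4% in all. The call was lost without genotype in the model (no replicate block, adjusted p = 0.0548), and, in fits of treatment alone, without EtOH replicate 2 (adjusted p = 0.0661) and without 4OHT replicate 2 (adjusted p = 0.0592).

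Cd244, the receptor 2B4 of natural killer cells and other leukocytes, moved the opposite way. It had 0.0846 RPKM (11 reads) in EtOH and 11.4 RPKM (1568 reads) in 4OHT of delta/delta cells. In delta/+ cells it had 0.292 RPKM (37 reads) and 9.03 RPKM (1338 reads). Both 4OHT libraries were high and both EtOH libraries low, again with no overlap, as for 38.4% of tested genes in this direction. The rise was 134-fold in delta/delta (95% counting interval 74.8 to 269) and 30.9-fold in delta/+ (22.3 to 44.1). On the log2(RPKM + 1) scale it was 3.23 (SE 0.20, limma adjusted p = 0.00186), the 12th largest rise of 9595. Under 11 alternative fits its adjusted p ran from 0.00254 to 0.0480. Slamf1 and Cd244 each reached the mean of 1 RPKM needed for the test only through the arm in which they were high (means of 0.0894 RPKM for Slamf1 in 4OHT and 0.188 RPKM for Cd244 in EtOH), so any such gene that was tested had to differ between the arms. In the authors' deposited table, which sets 1 library against 1 library by Kal's Z-test, the signed fold of Slamf1 was -28.8 in replicate 1 (corrected p = 0.695) and -258 in replicate 2 (corrected p = 0.0307). That of Cd244 in the authors' deposited table was 143 (corrected p = 0.0175) and 32.0 (corrected p = 0.137).

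**Figure D2:**
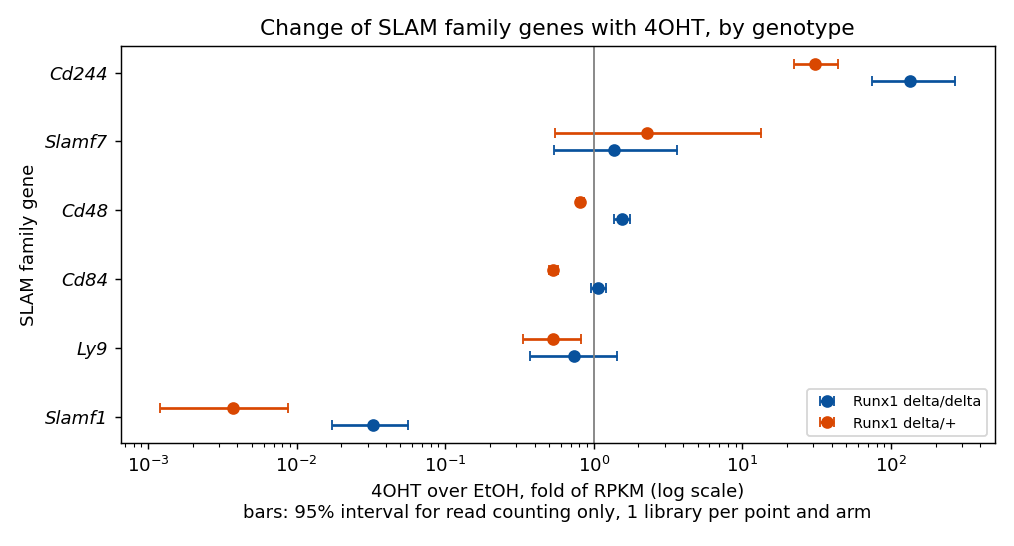
Fold of RPKM in 4OHT over EtOH on a log axis for the 6 SLAM family genes with reads in all 4 libraries, 1 point per genotype, with 95% intervals for read counting. Slamf1 lies at 0.0326 and 0.00375 and Cd244 at 134 and 30.9, while Cd48, Cd84, Ly9 and Slamf7 lie between 0.529 and 2.28.

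Cd48, the lipid-anchored ligand of CD244, was measured at 10.4 RPKM (411 reads) in EtOH and 16.0 RPKM (670 reads) in 4OHT of delta/delta cells. In delta/+ cells it was measured at 58.7 RPKM (2259 reads) and 47.8 RPKM (2151 reads). The treatment arms overlapped, while both delta/+ libraries lay above both delta/delta libraries, as for 21.4% of tested genes. For 4OHT the log2 change was 0.14 (SE 0.23, 95% interval -0.44 to 0.72, limma adjusted p = 0.663), and the direction differed between genotypes: 1.54-fold in delta/delta (95% counting interval 1.36 to 1.74) and 0.814-fold in delta/+ (0.767 to 0.864). Cd48 was 5.64-fold higher in delta/+ than in delta/delta in EtOH (5.07 to 6.28) and 2.99-fold higher in 4OHT (2.74 to 3.27). Set as delta/delta against delta/+, the log2 difference of Cd48 was -1.96 (SE 0.23, limma adjusted p = 0.0186), the 9th largest difference in that direction of 9595 genes. Genotype and replicate number coincide, so a genotype difference and any other difference between the replicates cannot be told apart. In this comparison 11.6% of genes were called, 6.91% lower and 4.68% higher in delta/delta. The call was lost when low genes were kept in (adjusted p = 0.0636), without the treatment term (adjusted p = 0.528) and without any of the 4 libraries (adjusted p of 0.646 or more), while the log2 difference stayed between -1.67 and -2.24 in these fits.

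Cd84, a self-binding member found on many leukocytes and on platelets, was measured in delta/delta cells at 2.60 RPKM with EtOH and 2.79 RPKM with 4OHT (563 and 640 reads). In delta/+ cells the levels were 10.2 and 5.45 RPKM (2147 and 1344 reads). As for Cd48, the genotypes did not overlap and the treatment arms did. Set as delta/delta against delta/+, the log2 difference of Cd84 was -1.20 (SE 0.24, limma adjusted p = 0.0390); delta/+ was 3.91-fold higher in EtOH (95% counting interval 3.56 to 4.30) and 1.96-fold higher in 4OHT (1.78 to 2.15). This call was lost under 8 of 11 alternative fits, among them median-ratio scaling (adjusted p = 0.0535), a minimum mean of 5 RPKM (adjusted p = 0.0562) and each fit that left out a library. For 4OHT its log2 change was -0.36 (SE 0.24, 95% interval -0.96 to 0.24, limma adjusted p = 0.290). Its ratio of 4OHT to EtOH was 1.07 in delta/delta (95% counting interval 0.954 to 1.20) and 0.535 in delta/+, where the interval ended at 0.574.

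Slamf1 and Cd244 did not pass the test for genotype. In EtOH, Slamf1 was 3.11-fold higher in delta/+ (95% counting interval 2.77 to 3.51), and Cd244 was 3.45-fold higher there on few reads (1.72 to 7.50). In 4OHT the ratio of delta/+ to delta/delta was 0.358 for Slamf1 (5 and 13 reads, interval up to 1.07) and 0.795 for Cd244 (0.739 to 0.856). Their log2 changes in limma were -0.66 for Slamf1 (SE 0.37, adjusted p = 0.276) and 0.02 for Cd244 (SE 0.20, adjusted p = 0.942). Whether the response to 4OHT differs between the genotypes could not be tested for any member, since that term leaves 0 residual degrees of freedom.

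The remaining 5 members had a mean under 1 RPKM and entered no test. Ly9 (CD229), a self-binding receptor of lymphocytes and some progenitors, had 23 and 18 reads (0.272 RPKM with EtOH, 0.200 RPKM with 4OHT) in delta/delta cells and 55 and 34 reads (0.666 and 0.352 RPKM) in delta/+ cells. Its fold with 4OHT was 0.737 in delta/delta (95% counting interval 0.375 to 1.43) and 0.529 in delta/+ (0.334 to 0.826). Only the delta/+ interval left out no change, and it covers read counting alone. The delta/+ libraries of Ly9 lay above its delta/delta libraries, as for 21.4% of tested genes. That ratio was 2.45 in EtOH (95% counting interval 1.48 to 4.18) and 1.76 in 4OHT (0.967 to 3.31), the latter not distinguishable from no change. Slamf7 (CRACC), a receptor of natural killer and plasma cells, had 9 and 13 reads in EtOH and 4OHT of delta/delta and 3 and 8 reads in delta/+, and its fold with 4OHT was not distinguishable from no change in either genotype (1.36, 0.538 to 3.61, and 2.28, 0.547 to 13.3). Its delta/delta libraries lay above its delta/+ libraries, as for 17.0% of tested genes, but the ratio of delta/+ to delta/delta could not be told from no change in EtOH (0.342, 0.0596 to 1.37) or in 4OHT (0.574, 0.206 to 1.49). Slamf6 (Ly108), which marks certain T cells, had 2 reads in the 4OHT library of delta/delta and 0 in the others, and Slamf8, a myeloid member, had 1 read there and 0 in the others. In the libraries with a count of 0, the upper end of the exact Poisson interval was 0.0383 to 0.0448 RPKM for Slamf6 and 0.0459 to 0.0536 RPKM for Slamf8. Slamf9 was listed at 0 in all 4 libraries.

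RPKM is scaled by gene length, so levels can be set beside each other. In EtOH the order was Cd48, Slamf1, Cd84, Ly9 and Cd244 in both genotypes, but the ranges of neighbours overlapped: Cd48 (10.4 to 58.7 RPKM) with Slamf1 (4.04 to 12.6 RPKM), Slamf1 with Cd84 (2.60 to 10.2 RPKM), and Ly9 (0.272 to 0.666 RPKM) with Cd244 (0.0846 to 0.292 RPKM). Cd84 and Ly9 did not overlap. In 4OHT it was Cd48, Cd244, Cd84 and Ly9 in both genotypes, with no overlap between neighbours in this order, followed by Slamf1 and Slamf7, whose ranges overlapped. Summed over the 9 genes the family had 17.5 and 82.4 RPKM in EtOH and 30.6 and 62.7 RPKM in 4OHT, delta/delta first each time. Slamf1 held 23.1% and 15.3% of that sum in EtOH and 0.431% and 0.0752% in 4OHT. Cd244 held 0.484% and 0.354% in EtOH and 37.2% and 14.4% in 4OHT. Cd48 exceeded Slamf1 2.57-fold and 4.66-fold in EtOH and 121-fold and 1013-fold in 4OHT, and it exceeded its receptor partner Cd244 123-fold and 201-fold in EtOH and 1.41-fold and 5.29-fold in 4OHT. These are RNA ratios in bulk samples, where fewer cells with a transcript and less of it per cell cannot be told apart.

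**Figure D3:**
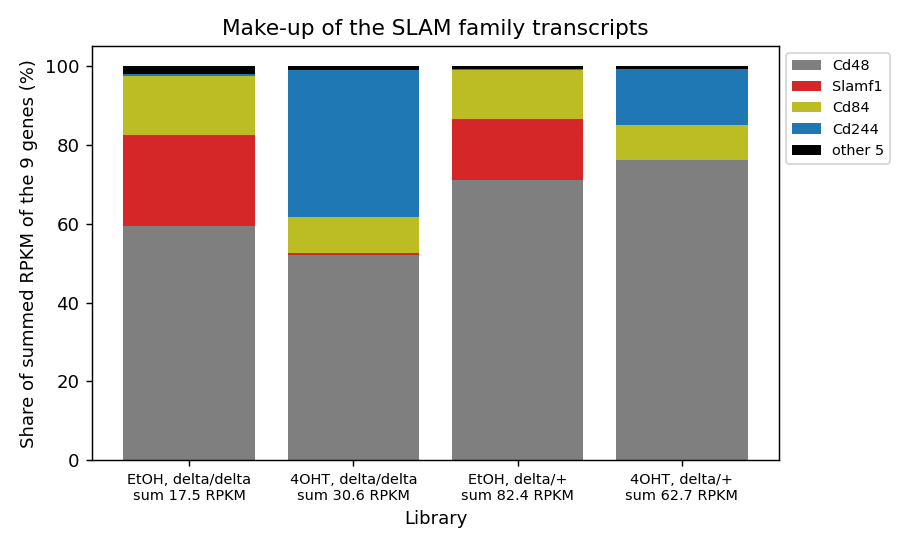
Share of the summed RPKM of the 9 SLAM family genes held by each gene (percent, stacked bars from 0 to 100) in the 4 libraries, with the sum under each bar. Slamf1 holds 23.1% and 15.3% in the EtOH libraries, and Cd244 holds 37.2% and 14.4% in the 4OHT libraries.

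All 9 members lie on mouse chromosome 1. In RefSeq's gene order (GRCm38; the submitters' processing notes name mm9, so only the order is used) 7 of them form a cluster in the order Cd244, Ly9, Slamf7, Cd48, Slamf1, Cd84 and Slamf6, and Slamf9 and Slamf8 lie beyond a further 14 genes. Among genes with a row, Slamf1 is thus next to Cd48 and Cd84, neither of which was called for 4OHT (Tma7-ps, between Cd48 and Slamf1, was not analysed here), and Cd244 sits at the outer end of the cluster beside Ly9, which did not pass 1 RPKM. Between the outermost members and among the 5 genes on either side there were 28 other protein-coding genes in the table, of which 12 were tested. With 4OHT 4 of these rose and 1 fell, the median of their log2 changes being 0.26, beside 0.16 over all 9595 tested. Of all tested genes 32.4% were called, so 5 of 12 is near that share. Alyref2, an RNA export factor gene next but one to Cd244, rose by 1.55 (SE 0.24, limma adjusted p = 0.0101), and F11r, the junctional adhesion molecule A gene beside it, fell by 1.26 (SE 0.20, limma adjusted p = 0.0106). Pea15a and Igsf8, which lie between Slamf6 and Slamf9, rose by 0.78 and 1.17, and Dusp23, just beyond Slamf8, rose by 1.28. All 5 calls were also made with median-ratio scaling and all 5 were lost with no replicate block. For genotype limma called 0 of the 12 neighbours, 4 having an unadjusted p under 0.05 (11.6% of all tested genes were called), the median being -0.11, beside -0.03 over all tested.

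**Figure D4:**
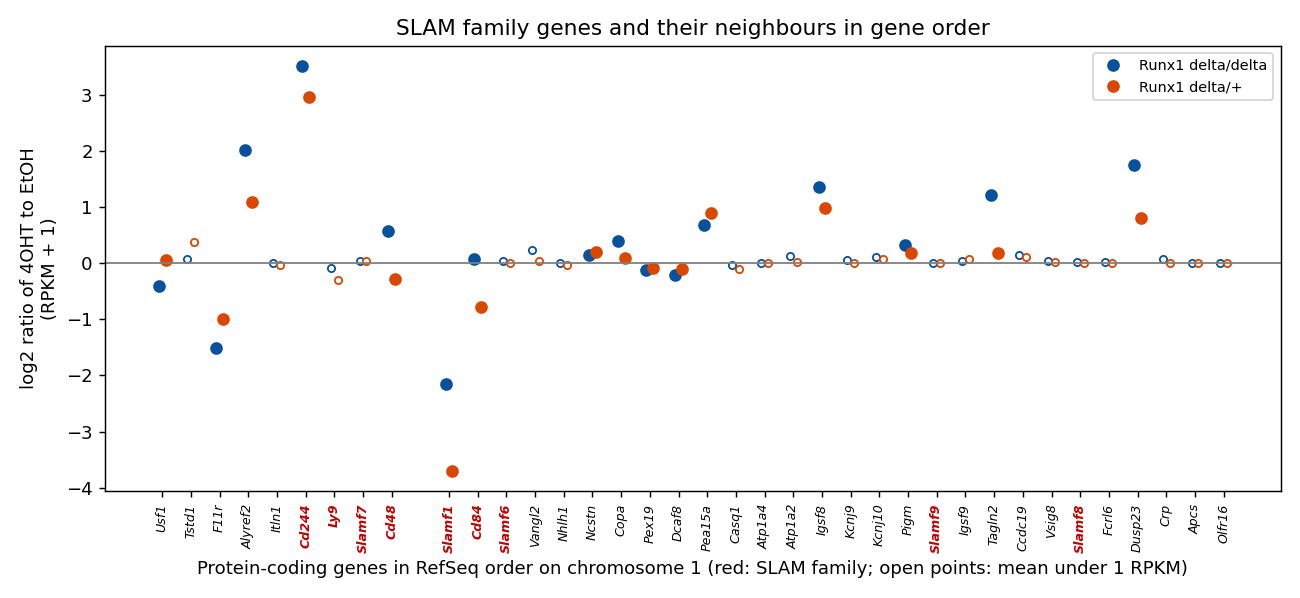
The log2 ratio of 4OHT to EtOH (RPKM + 1; 1 point per genotype) for protein-coding genes in their order on chromosome 1, equally spaced, with SLAM family names in red and open points for genes with a mean under 1 RPKM. Cd244 (3.51 and 2.96) and Slamf1 (-2.16 and -3.70) lie farthest from 0 in this window.

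The sequences leading up to the start sites of the 4 measurable members are shown because these genes lie close together and yet were called in different comparisons, Slamf1 and Cd244 for treatment and Cd48 and Cd84 for genotype. Each is the 250 bases up to the annotated start, 5′ to 3′ on the gene's strand, from RefSeq (GRCm38.p6), which had a window for 8 of the 9 members (Cd244 is listed there as Cd244a; Ly9 had no match). Capitals mark letters of 3 motifs searched on both strands. The RUNX motif was searched as TGTGGT and in a variant form as TGCGGT, the GATA motif as AGATAA and in a variant form as TGATAA, and the ETS motif as AGGAAG. No capitals overlap between motifs.
Slamf1, chr1:171766882-171767131, + strand: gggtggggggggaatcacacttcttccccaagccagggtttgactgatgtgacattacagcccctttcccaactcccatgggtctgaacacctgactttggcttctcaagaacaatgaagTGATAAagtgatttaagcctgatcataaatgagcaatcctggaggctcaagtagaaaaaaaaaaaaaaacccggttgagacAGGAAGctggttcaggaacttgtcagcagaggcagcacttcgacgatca
Cd244, chr1:171558943-171559192, + strand: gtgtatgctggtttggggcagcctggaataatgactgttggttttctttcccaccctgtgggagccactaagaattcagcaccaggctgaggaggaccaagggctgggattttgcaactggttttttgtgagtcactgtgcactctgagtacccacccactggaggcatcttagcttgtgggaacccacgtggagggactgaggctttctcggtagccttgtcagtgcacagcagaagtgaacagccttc
Cd48, chr1:171681742-171681991, + strand: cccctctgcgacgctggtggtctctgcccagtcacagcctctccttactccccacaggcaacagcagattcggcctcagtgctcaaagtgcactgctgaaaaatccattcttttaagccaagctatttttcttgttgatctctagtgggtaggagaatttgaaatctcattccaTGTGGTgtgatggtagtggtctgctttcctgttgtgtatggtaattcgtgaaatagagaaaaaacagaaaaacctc
Cd84, chr1:171839447-171839696, + strand: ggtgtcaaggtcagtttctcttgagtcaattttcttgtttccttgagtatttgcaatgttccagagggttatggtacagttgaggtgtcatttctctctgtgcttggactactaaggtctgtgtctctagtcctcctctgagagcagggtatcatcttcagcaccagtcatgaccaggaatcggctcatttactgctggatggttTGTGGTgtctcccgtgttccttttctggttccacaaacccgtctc
The Slamf1 window held 1 GATA and 1 ETS match, the Cd244 window held no match to any of the 3, and the Cd48 and Cd84 windows each held 1 RUNX match (TGTGGT). Across all 32851 windows of this length in RefSeq's set, 18.6% held a RUNX match, 16.6% a GATA match and 29.5% an ETS match. Matches are letters only; binding was not measured here.

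The adaptors that SLAM receptors signal through were close to absent. Sh2d1a, which encodes SAP, and Sh2d1b2 were listed at 0 in all 4 libraries, and Sh2d1b1, which encodes EAT-2, had 0 in both EtOH libraries and 0.0380 and 0.0354 RPKM in the 4OHT libraries. Cd2, a related receptor that binds CD48 in mice, was at or below 0.0952 RPKM. The enzymes and scaffolds further downstream were mostly expressed, 26 of 28 reaching 1 RPKM. With 4OHT 5 of these 26 rose and 3 fell (32.4% of all tested genes were called), the median of their log2 changes being 0.06, beside 0.16 over all tested.

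Among the kinases, Fyn, the Src-type kinase that SAP recruits, went from 5.52 to 16.6 RPKM in delta/delta and from 6.28 to 16.0 RPKM in delta/+, a log2 difference of 1.33 (SE 0.14, limma adjusted p = 0.00511). Csk, the kinase that restrains Src-type kinases, went from 82.2 to 174 and from 69.0 to 117 RPKM, a log2 change of 0.92. Lck and Lyn, further Src-type kinases, were not called, with log2 changes of -0.50 (SE 0.33) and -0.24 (SE 0.14). Prkcq, a protein kinase C that acts in SAP and Fyn signalling, fell by 0.89. Among the scaffolds, Dok2 rose from 1.41 to 27.9 and from 4.30 to 13.3 RPKM, whereas its relative Dok1 fell from 35.3 to 16.7 and from 29.9 to 16.9 RPKM. Lat, a membrane scaffold of T cells, mast cells and platelets, rose from 59.1 to 308 and from 100 to 153 RPKM, and Plcg1, the phospholipase it binds, rose by 0.65. Pik3r1, the regulatory subunit of PI3-kinase, fell from 66.7 to 11.6 and from 63.7 to 13.7 RPKM, a log2 difference of -2.28 (SE 0.15, limma adjusted p = 0.00203). The phosphatases that compete with SAP for receptor tails were not called: Ptpn6 (SHP-1) had a log2 change of -0.38 (SE 0.14), Ptpn11 (SHP-2) one of 0.17 (SE 0.14) and Inpp5d (SHIP-1) one of -0.49 (SE 0.15).

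**Figure D5:**
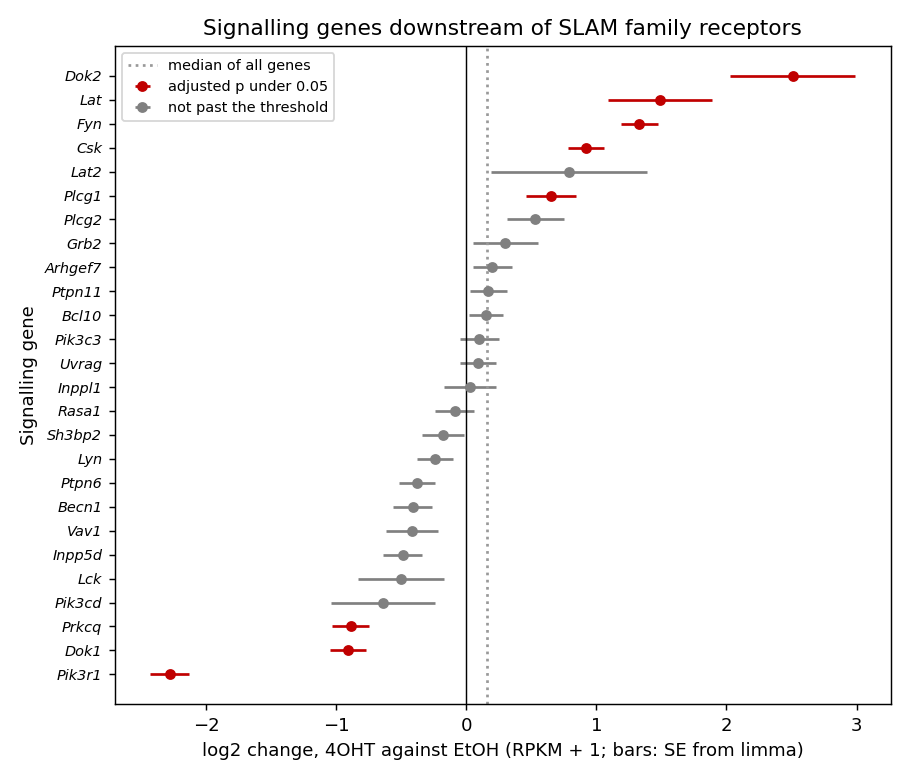
The log2 change with 4OHT against EtOH (RPKM + 1) for the 26 tested signalling genes, with bars for the SE from limma, red for adjusted p under 0.05 and a dotted line at 0.16, the median of all genes. Dok2, Lat, Fyn, Csk and Plcg1 are called higher and Pik3r1, Dok1 and Prkcq lower.

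With median-ratio scaling, which shifts the median of all genes by -0.18, 3 signalling genes rose (Fyn, Csk and Dok2) and 6 fell, the calls of Lat and Plcg1 being lost and Ptpn6, Inpp5d and Becn1 being called lower. With no replicate block 1 rose (Fyn) and 1 fell (Pik3r1). Between the genotypes 2 of the 26 were called, both lower in delta/delta, where 6.91% of all genes were called lower: Rasa1, a Ras inhibitor, fell by 1.20 (SE 0.15, limma adjusted p = 0.0210). The other was the phospholipase Plcg2 (0.592 and 1.88 RPKM in delta/delta, 2.99 and 3.57 RPKM in delta/+, limma adjusted p = 0.0488), a call lost with median-ratio scaling.

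Other surface genes used with CD150 to gate progenitors moved in both directions. Of 19 with a row, 8 were tested; with 4OHT 1 rose and 2 fell, close to the 32.4% called over all genes. Ly6a (Sca-1) went from 3.95 to 1.02 and from 1.22 to 0.0613 RPKM, a log2 difference of -1.18 (SE 0.19, limma adjusted p = 0.0110), and Itga2b (CD41) fell by 0.72. Fcgr3 (CD16) went from 4.25 to 13.1 and from 1.82 to 3.09 RPKM, a log2 difference of 0.98 (SE 0.24, limma adjusted p = 0.0328). Its call was lost with median-ratio scaling, and all 3 calls were lost with no replicate block. When low genes were kept in, Kit was called higher and Ly6a kept its call, while the calls of Fcgr3 and Itga2b were lost. Eng (CD105), the marker of the study's title that is absent on its progenitors, was not called (log2 change 0.30, SE 0.22, adjusted p = 0.341). Between genotypes Ly6a, Fcgr3 and Ly6c2 were higher in delta/delta and Flt3 and Cd9 lower, Flt3 by 1.49 and Cd9 by 1.03, so that 5 of 8 were called beside 11.6% of all genes. These 5 genotype calls were kept with median-ratio scaling. They were lost when low genes were kept in and without the treatment term, as was every genotype call over all genes. Of 5 tested genes of the stem cell list, Angpt1 rose by 2.80 and Mllt3 and Gfi1b fell by 1.45 and 0.86, beside 22.2% of all genes called higher and 10.2% lower; all 3 calls were lost with no replicate block. Ctnnal1 and Gata2 (63.5 to 182 RPKM) were not called for 4OHT, though Gata2 was called lower with median-ratio scaling. Below the test's minimum, Hlf went from 5 to 265 reads in delta/delta and from 7 to 94 in delta/+. Meis1 went from 1 to 42 and from 68 to 358 reads, and Tek from 60 to 9 and from 19 to 2. Hoxb5 was at 0 and Mecom at or below 0.0138 RPKM. For genotype, Gfi1b was called higher in delta/delta and Ctnnal1 and Angpt1 lower, beside 11.6% of all genes called.

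Genes of other cells that carry these receptors were read beside the members, and their part in the members' changes was not tested. Over all tested genes 22.2% were called higher and 10.2% lower with 4OHT. Natural killer cells are the classic CD244 carriers. Of their defining genes Klrd1, Klre1 and Tbx21 were at 0 in all libraries and Ncr1 and Klrb1c at or below 0.0414 RPKM. In that list of 13, 10 were above 0 somewhere, and only Gzmb and Nkg7 were tested. Below the test's minimum, Cd7 had 0 and 1 reads in EtOH and 28 and 10 in 4OHT, Eomes had 0 in both EtOH libraries and 9 and 12 reads in 4OHT, and Il2rb had 2 and 3 reads in EtOH and 9 and 14 in 4OHT (called higher when low genes were kept in). Prf1 did not rise in both genotypes, going from 1 to 0 reads in delta/delta and from 2 to 24 in delta/+. Gzma had at most 1 read in any library and Klrk1 at most 2. Gzmb rose from 0.204 to 259 and from 17.0 to 536 RPKM and set nearly all of the list's sum (0.439 and 17.5 RPKM in EtOH, 267 and 539 RPKM in 4OHT), and Nkg7 rose by 2.05. Mast cell and basophil genes, from cells that can also carry CD244, were each above 0 in at least 1 library. However, Tpsab1, Tpsb2 and Mcpt4 had 4 reads or fewer in every library. Of the 7 tested, 3 rose with Cd244: Cpa3 by 2.85, Ms4a2 by 2.23 and Prss34 by 3.23. The other 4 were not called, with log2 changes of 1.22 for Fcer1a, -0.79 for Mcpt8, -0.65 for Hdc and -0.58 for Cma1, and Hdc, the most abundant in EtOH, was called lower with median-ratio scaling. The list's sum went from 55.0 to 178 RPKM in delta/delta but from 89.5 to 65.7 RPKM in delta/+, and the 3 calls were lost with no replicate block. Megakaryocyte genes moved with Slamf1, 5 of 7 tested falling and Itgb3 rising, with sums of 184 and 225 RPKM in EtOH and 109 and 88.1 RPKM in 4OHT. Erythroid genes fell too, 8 of 9 tested. With no replicate block 2 megakaryocyte genes and 3 erythroid genes were called lower, and neither Gzmb nor Nkg7 was called.

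Genes of lymphocytes and mature myeloid cells were mostly low. Of 10 T cell genes Cd3e and Trat1 were at 0, and apart from Lck and Lat none exceeded 0.219 RPKM. Among B cell genes Ms4a1, Pax5 and Ebf1 were at 0, and none of the list exceeded 0.355 RPKM. The 10 dendritic cell genes summed to 4.18 to 10.6 RPKM with Siglech, Cd209a, Ccr9 and Xcr1 at 0. The 13 monocyte and macrophage genes summed to 11.5 and 19.6 RPKM in EtOH and 4OHT of delta/delta and to 7.58 and 9.18 RPKM in delta/+, with Marco at 0. The 9 neutrophil granule genes summed to 43.7 and 48.9 RPKM in delta/delta and to 18.6 and 19.0 RPKM in delta/+. The monocyte and macrophage sums and the neutrophil sums thus split by genotype, as Cd48 and Cd84 did, but with delta/delta higher. S100a8 (30.5 and 29.7 RPKM in delta/delta, 9.46 and 9.39 RPKM in delta/+) and S100a9 made up most of the neutrophil sums. Lyz2 and Ly6c2 set the monocyte and macrophage split. Cd68, also tested there, overlapped between the genotypes (2.52 and 4.59 RPKM, 3.33 and 4.00 RPKM). Of all tested genes 17.0% lay apart with delta/delta higher. The dendritic cell sums split with delta/+ higher, the direction of Cd48 and Cd84 (5.63 and 4.18 RPKM in delta/delta, 10.6 and 6.04 RPKM in delta/+). H2-Ab1 set that split (1.33 and 1.37 RPKM in delta/delta, 6.12 and 4.23 RPKM in delta/+). Zbtb46, the other tested gene of that list, overlapped between the genotypes (3.63 and 1.25 RPKM, 3.38 and 0.974 RPKM). Of all tested genes 21.4% lay apart with delta/+ higher. S100a8 and S100a9 (2 of 3 tested), Lyz2 and Ly6c2 (2 of 3 tested) and 4 of 9 erythroid genes were called higher in delta/delta, beside 4.68% of all genes. The dendritic cell gene H2-Ab1 (1 of 2 tested) and the megakaryocyte gene Pf4 (1 of 7 tested) were called lower in delta/delta, beside 6.91% of all genes. The part of all these genes in the genotype differences of the members was not tested.

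By their pattern over the 4 libraries (Euclidean distance of centred log2(RPKM + 1) values, 8981 named genes compared), the genes nearest to Slamf1 were F2rl2, Ccdc155 and Tnfsf14, at distances of 0.28, 0.56 and 0.61. F2rl2, the thrombin receptor subunit PAR3, had 6.08 and 16.6 RPKM in EtOH and 0.851 and 0.680 RPKM in 4OHT, and it was the only gene within 0.5 of Slamf1. Among the nearest to Cd244 were Slc22a3 and Paqr7 (0.32 and 0.41), with 8 genes within 0.5. Slc22a3, an organic cation transporter, had 0.0248 and 0.373 RPKM in EtOH and 14.0 and 8.14 RPKM in 4OHT. Nearest to Cd48 were Xlr4a, Serpinb6a and Tmc4 (0.38, 0.44 and 0.48), with 5 genes within 0.5. Nearest to Cd84 were Vegfa, Cd9 and H2-Ab1 (0.24, 0.29 and 0.30), with 37 genes within 0.5. The distance is not scaled by the size of a gene's changes, so these counts do not rank how widely each pattern was shared.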

How the data were processed

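RNA of 4 libraries was measured. Per the file headers, the authors deposited RPKM for 23240 genes in each library, and, for each replicate number, the result of Kal's Z-test as a signed fold of proportions with its p-value, raw and FDR-corrected. The submitters' processing notes name mm9; not given in the sources used here are the aligner, the annotation, strand use and which library was made with which of the 2 kits that the labels name. Without strand, reads of overlapping genes cannot be told apart. The test sets 1 library against 1 library and its values are only quoted.

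RPKM steps gave whole reads for 94.5% of 17213 genes above 0 (tolerance 0.02 reads) and depths of 34.6, 36.7, 33.7 and 39.4 M mapped reads. Exact Poisson and conditional binomial intervals (95%, scipy 1.17.1) cover counting error only, since reads are not independent molecules.

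The 9595 genes averaging 1 RPKM or more were tested with limma 3.58.1 (R 4.3.3) on log2(RPKM + 1), two-sided, with treatment and genotype as terms, a trended prior (1 residual and 4.37 prior degrees of freedom) and Benjamini-Hochberg adjustment at 0.05. The code was run on simulated counts for the treatment term only, with 200 of 8608 genes changed, a far smaller share than was called in the data. The genotype term was not simulated. Genotype and replicate number coincide in the labels, so the genotype term is the replicate block; deviations of same-numbered libraries from their arm means correlated at 0.664 across genes. Alternatives were pseudocounts of 0.5 and 0.1, no filter, a mean of at least 5 RPKM, median-ratio scaling, a prior with no trend, models of 1 term and leaving out each library.

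The 9 members and the 15 gene lists (172 entries, 169 in the table) were chosen with earlier results of these data known. Named genes were all members, the 3 genes nearest in pattern to each tested member (clone names left out), genome neighbours, and list members past the threshold or with the smallest p; a few further list genes were picked once their values were known, and some genes that the rule names are not reported here. Sequences are RefSeq's.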

Additional observations from a re-analysis of the deposited data

Results flagged for a closer look

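The ratio of 4OHT to EtOH had opposite signs in the genotypes for 2 tested members. For Cd48 the log2 ratio (RPKM + 1) was 0.57 in delta/delta and -0.29 in delta/+. For Cd84 it was 0.07 in delta/delta and -0.79 in delta/+, and the counting interval of the delta/delta fold (0.954 to 1.20) included no change. With 1 library per genotype and treatment the difference between genotypes was not tested. Opposite signs were found for 18.7% of the 9595 tested genes.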

How the results depend on the processing

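Cd244 kept its call for 4OHT under all 11 alternatives. Slamf1 kept its direction under the 10 that tested it (adjusted p 0.00723 to 0.0661) and was not tested at a mean of at least 5 RPKM; its log2 change was -2.93 with no replicate block, -2.21 without EtOH replicate 2 and -2.87 without 4OHT replicate 2, where the call was lost. With no replicate block 233 genes were called for 4OHT (117 higher, 116 lower) in place of 3113, and 1 member in place of 2; leaving out a library gave 39 to 251 genes and 1 to 2 members. Median-ratio scaling gave 1221 higher and 1325 lower genes, against 2130 and 983. A mean of at least 5 RPKM left 1 member called for 4OHT and, for genotype, 646 genes and 1 member. Genotype calls in limma fell from 1112 to 0 with no filter (3906 at an unadjusted p under 0.05), to 0 without the treatment term (880) and to 0 to 0 when a library was left out (166 to 629); the members' genotype calls fell from 2 to 0 in each of these (1 to 3 unadjusted) and to 1 with median-ratio scaling. Directions of uncalled values turned as follows. Cd48 for 4OHT was -0.05 with median-ratio scaling, -1.05 without EtOH replicate 1 and -0.62 without 4OHT replicate 2, and ran from -1.05 to 1.34 when a library was left out. Cd84 for 4OHT was 0.02 without 4OHT replicate 1 and 0.46 without EtOH replicate 2 (range -1.18 to 0.46). Slamf1 for genotype was 0.42 and 1.19 in those same fits (range -2.51 to 1.19). Cd244 for genotype was -0.06 and -0.38 with pseudocounts of 0.5 and 0.1, and -1.73 and -1.45 without 4OHT replicate 1 and EtOH replicate 2 (range -1.73 to 1.78). Fits that leave out a library hold the tested term alone and assume that the lone library varies like the others; fewer libraries and terms are part of their construction, and the cause of the other changes was not tested. At this depth members with 2 reads or fewer carry no comparison.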
